A study of Mus musculus with 2 samples.

Results

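The Mir17-92 and Mir106b-25 clusters are groups of neighbouring microRNA genes that share ancestry and seed sequences. Their 9 genes were found by matching the Ensembl identifiers of the deposited tables to gene symbols of the mouse GENCODE annotation, and all 9 were present among the 1973 microRNA genes of the tables. The Mir17-92 cluster holds 6 genes (Mir17, Mir18, Mir19a, Mir20a, Mir19b-1 and Mir92-1) and the Mir106b-25 cluster holds 3 (Mir106b, Mir93 and Mir25). The study sequenced small RNAs with inserts under 30 nucleotides from whole limbs of embryonic day 14.5 mice (strain B6NCrl), for which the labels name no mutation. It holds 1 group of 2 libraries, labelled biological replicates 1 and 2 and collected on different days, each from 4 limbs of a pup, with pooled sex and the same donor label on both. The labels name no treatment and no second condition, so the libraries give levels and the spread between these samples, which may be technical in part.

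MicroRNAs are cut from hairpins in longer transcripts, and the mature strand guides a silencing complex to mRNAs that pair with its seed, the bases 2 to 8 from its 5′ end. Genes with the same seed therefore share many targets. The Mir17-92 cluster is carried by the noncoding host gene Mir17hg, which Myc activates, and the Mir106b-25 cluster lies in Mcm7, a gene of the DNA replication helicase that is transcribed in dividing cells. The miR-17 seed is known to restrain the cell cycle inhibitor Cdkn1a, and the miR-92 seed the pro-apoptotic gene Bcl2l11. Loss of one copy of the human Mir17-92 host gene causes a form of Feingold syndrome with shortened digits, and deletion of the cluster in mice also alters the skeleton.

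The mature arms below show the letters that sort the 9 genes into 4 seed groups. They are RefSeq sequences on GRCm38.p6, the build of the deposited tables, and capitals mark the seed. The arm given is the one for which each gene is usually named as active. The seed AAAGUGC defines the Mir17 group, which spans both clusters.
miR-17-5p: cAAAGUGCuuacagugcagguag
miR-20a-5p: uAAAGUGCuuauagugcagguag
miR-106b-5p: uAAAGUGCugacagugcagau
miR-93-5p: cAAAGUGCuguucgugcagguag
The Mir18 group has a single member here. Its seed, AAGGUGC, differs by 1 letter from the previous one.
miR-18a-5p: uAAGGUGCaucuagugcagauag
The Mir19 group lies within the Mir17-92 cluster alone.
miR-19a-3p: uGUGCAAAucuaugcaaaacuga
miR-19b-3p: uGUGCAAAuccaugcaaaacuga
The Mir92 group again spans both clusters.
miR-92a-3p: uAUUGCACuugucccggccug
miR-25-3p: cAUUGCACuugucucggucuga

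Counting positions from 1 at the 5′ end of the first named arm, miR-20a-5p differs from miR-17-5p by 2 substitutions, C1U and C12U. Over the 21 bases compared, miR-106b-5p differs from miR-17-5p by 3 (C1U, U10G and G20A). The arm miR-93-5p differs from miR-17-5p by 4, which are U10G, A11U, C12U and A13C. Only 1 substitution, U11C, separates miR-19b-3p from miR-19a-3p. Between miR-92a-3p and miR-25-3p there were 3, U1C, C14U and C18U, over 21 bases. The arms are 21 to 23 nucleotides long, so levels were compared as reads per gene without a division by length.

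Of the 9 arms, 2 occur letter for letter in a second hairpin among the 1005 mouse hairpins of the RefSeq table. The arm miR-19b-3p occurs in Mir19b-1 and in Mir19b-2, and miR-92a-3p in Mir92-1 and in Mir92-2, the second gene of each pair being on the X chromosome. These hairpins are shown because the identical stretch, in capitals, bears on which reads can be given to a gene.
Mir19b-1: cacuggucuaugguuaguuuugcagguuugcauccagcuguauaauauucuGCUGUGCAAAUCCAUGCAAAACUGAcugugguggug
Mir19b-2: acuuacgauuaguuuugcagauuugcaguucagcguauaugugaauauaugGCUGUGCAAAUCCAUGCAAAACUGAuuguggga
Mir92-1: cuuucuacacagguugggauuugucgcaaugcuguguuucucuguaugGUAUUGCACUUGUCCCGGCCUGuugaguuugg
Mir92-2: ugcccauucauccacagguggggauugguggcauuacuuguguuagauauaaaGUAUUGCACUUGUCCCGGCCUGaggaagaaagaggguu
The stretch is 25 nucleotides in the Mir19b pair and 22 in the Mir92 pair, and in both it holds the whole mature arm. A read lying wholly inside it matches both hairpins. The tables give reads with several alignments to no gene, so the counts of Mir19b-1 and Mir92-1 are lower limits. For the other 7 members the longest stretch shared letter for letter with any other hairpin was 12 to 17 nucleotides. With 1 substitution allowed, miR-17-5p also occurs in Mir106a, and miR-19a-3p in Mir19b-1 and Mir19b-2. Copies elsewhere in the genome were not searched.

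Replicate 1 held 4608816 reads counted on the own strand of a microRNA gene and replicate 2 held 4144385. A further 2865223 and 2735942 reads had several alignments, and how many of them came from miR-19b or miR-92a is not known. Levels are in CPM, the counts of a gene divided by the own-strand microRNA counts of its library and multiplied by 1000000. None of the 9 members had a count on the opposite strand. The labelled tissue was checked with marker microRNAs, and the 2 cartilage and 3 limb patterning markers were present in both libraries at 59560 to 66895 CPM summed. Of the 5 brain markers in the tables, 4 (Mir124a-3, Mir124a-2, Mir124a-1 and Mir9-2) were at 0 counts, though copies of the same arms limit what that shows. Limbs are mixed tissue, so a low level from fewer expressing cells and one from less RNA per cell cannot be told apart.

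The 2 clusters were both expressed, and Mir17-92 gave more reads than Mir106b-25 in each library. The 6 genes of Mir17-92 summed to 32110 CPM in replicate 1 and 34221 in replicate 2, or 3.32% ± 0.149 of the own-strand microRNA counts (SD, n = 2). The 3 genes of Mir106b-25 summed to 14003 and 15524 CPM, or 1.48% ± 0.108. Reads with several alignments are outside these totals. With them added to the library totals but to no gene, the sums averaged 20207 CPM for Mir17-92 and 8993 CPM for Mir106b-25. The ratio of the clusters was 2.29 in replicate 1 (95% exact binomial interval 2.27 to 2.31) and 2.20 in replicate 2 (2.18 to 2.23), a mean of 2.25 ± 0.0628. The excess of Mir17-92 was thus far larger than the spread between the libraries, although the interval covers counting error only and yields of different microRNAs in the assay were not measured. Mir19b-1 and Mir92-1, whose counts are lower limits, are both in Mir17-92. No arm of Mir106b-25 had an identical copy among the hairpins searched, so the ratio is a lower limit in this respect.

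In counted reads, Mir17 led its cluster and the 9 genes as a whole, with Mir92-1 and Mir19b-1 known only as lower limits. Mir17 (ENSMUSG00000065508.1, GRCm38 chromosome 14, 115043671 to 115043754, plus strand) lies in exon 2 of the Mir17hg transcript, as do the other 5 hairpins of the cluster, which together span 836 nucleotides. Its level was 18447 CPM in replicate 1 and 19456 in replicate 2 (mean 18952 ± 714, SD, n = 2), rank 16 among the 1973 genes by counted reads. Its neighbours in that order were the endothelial microRNA Mir126a above (19115 ± 215 CPM) and Mir99b below (16252 ± 1314 CPM). The range of Mir126a, 18963 to 19268 CPM, lay inside that of Mir17, so their order was not resolved. Mir17 gave 57.4% of the counts of its cluster in replicate 1 and 56.9% in replicate 2. The missing reads of Mir92-1 and Mir19b-1 would lower these shares by an amount that is not known.

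Mir20a, which carries the same seed, was the next highest gene of the cluster in counted reads. It lies on chromosome 14 from 115044157 to 115044263 (ENSMUSG00000065442.1) and reached 7099.65 and 7751 CPM in replicates 1 and 2 (mean 7425 ± 461). The ratio of Mir17 to Mir20a was 2.60 and 2.51, so the counts of the 2 genes differed by more than the spread between the libraries. Their named arms are separated by C1U and C12U, but each count holds both arms of a hairpin. Mir18 (ENSMUSG00000065403.1, 115043851 to 115043946), whose seed differs by 1 letter, had 4824 and 5011 CPM (mean 4917 ± 132). Mir20a was 1.51 ± 0.0531 times Mir18, and their ranges did not overlap.

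Mir92-1, the last hairpin of the transcript, had a level of 1679 CPM in replicate 1 and 1927 in replicate 2 (mean 1803 ± 175). It lies from 115044427 to 115044506 (ENSMUSG00000076062.1), and its count is a lower limit because of the arm shared with Mir92-2. Mir19a and Mir19b-1, which share the Mir19 group seed, were far below the other members in counted reads in both libraries. Mir19a (ENSMUSG00000065416.1, 115044000 to 115044081) had 219 and 246 counts, or 47.5 and 59.4 CPM (mean 53.4 ± 8.37). Mir19b-1 (ENSMUSG00000076256.1, 115044305 to 115044391) had 63 and 67 counts, or 13.7 and 16.2 CPM (mean 14.9 ± 1.77), also a lower limit.

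Mir19a lies between Mir18 and Mir20a, which gave 93.0 ± 12.1 and 140 ± 13.3 times its reads. Mir19b-1 lies between Mir20a and Mir92-1, and no fold is given for it, since reads of its own arm and of that of Mir92-1 are missing. The arm of Mir19a has no identical copy in another hairpin, but 2 hairpins, Mir19b-1 and Mir19b-2, hold it with 1 substitution. The part of near-identical copies in the level of Mir19a was not tested.

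**Figure D1:**
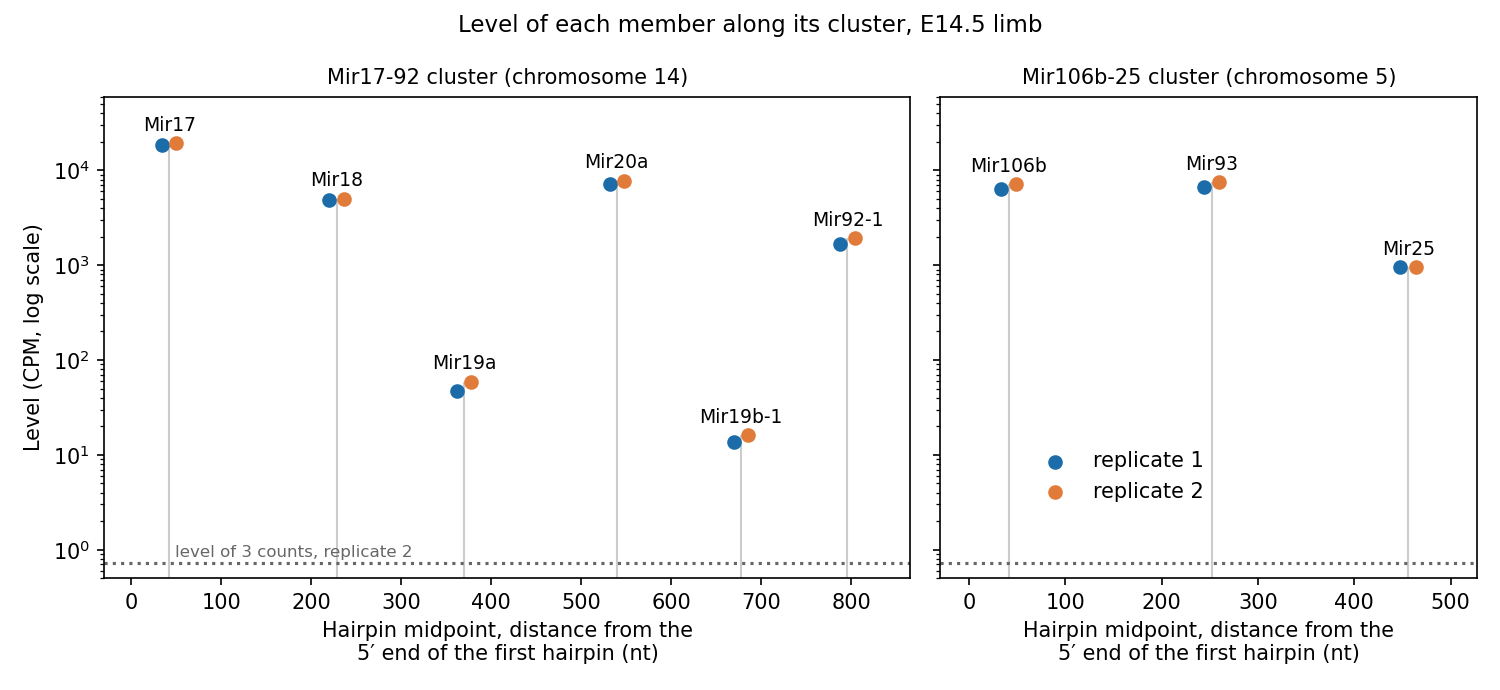
Level of each member (CPM, log axis) in replicate 1 and replicate 2 against the distance of its hairpin from the 5′ end of the first hairpin of its cluster, in nucleotides. Points of the 2 libraries are set slightly apart sideways, and the dotted line is the level of 3 counts in replicate 2, the higher of both libraries. Mir19a and Mir19b-1, at 53.4 and 14.9 CPM in counted reads, sit between neighbours of the same transcript at 1803 CPM or more. The levels of Mir19b-1 and Mir92-1 are lower limits, since reads of their shared arms are missing.

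In the Mir106b-25 cluster, Mir93 and Mir106b had nearly equal levels and Mir25 a lower one. The 3 hairpins span 498 nucleotides of chromosome 5 on the minus strand, in intron 13 of the 15-exon Mcm7 transcript and intron 8 of a shorter coding one. Mir93 and Mir25 also overlap exon 1 of a transcript of Mcm7 that retains this intron, and Mir106b does not. Mir93 (ENSMUSG00000065527.1, 138165523 to 138165610) had 6703 and 7449 CPM in replicates 1 and 2 (mean 7076 ± 528). Mir106b (ENSMUSG00000065514.1, 138165737 to 138165818) had 6355 and 7118 CPM (mean 6736 ± 540.05). The ranges of these genes overlapped between libraries, but within each library Mir93 was 1.05-fold the higher, with intervals of 1.04 to 1.07 in replicate 1 and 1.03 to 1.06 in replicate 2.

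Mir25, which carries the Mir92 group seed, had 945 and 957 CPM (mean 951 ± 8.20) and gave 6.46% ± 0.415 of the counts of the cluster. It lies from 138165321 to 138165404 (ENSMUSG00000065394.1), and Mir93 was 7.44 ± 0.491 times as high. In the order of all 9 genes, Mir20a, Mir93 and Mir106b held ranks 31, 32 and 34. They had overlapping ranges over the libraries, while Mir20a was above Mir93 within each (ratios 1.06 and 1.04). Mir181c, at 6919 ± 346 CPM, was the next gene below Mir93, and its range also overlapped that of Mir93. The remaining neighbours in the order of the 9 genes by counted reads had ranges that did not overlap.

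**Figure D2:**
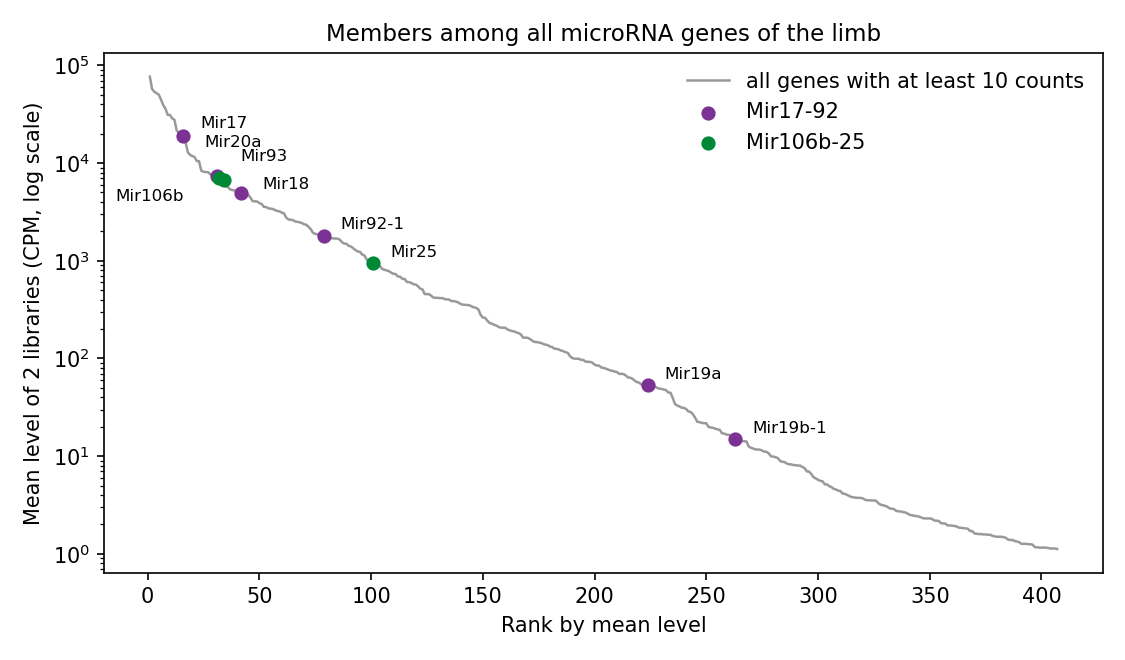
Mean level of the 2 libraries (CPM, log axis) of all 407 genes with at least 10 counts in total, ordered by level (grey line), with the members of each cluster as points. By counted reads, members range from rank 16 (Mir17) to rank 263 (Mir19b-1, whose count is a lower limit).

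Grouped by seed, the counted reads of the 9 genes were mostly from the Mir17 group. Mir17, Mir20a, Mir106b and Mir93 summed to 38604 and 41774 CPM, or 83.8% ± 0.185 of the 9 genes. Mir18 gave 10.3% ± 0.274 and the Mir92 group (Mir92-1 and Mir25) 5.74% ± 0.0752, at 2625 and 2884 CPM. The Mir19 group gave 0.142% ± 0.0135, at 61.2 and 75.5 CPM. These shares held the same order in both libraries and are shares of counted reads. Each count holds both arms of a hairpin, which the tables do not separate, and the arms shared with the X chromosome lower the shares of the Mir19 and Mir92 groups.

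Both clusters contributed to the Mir17 and Mir92 groups. Mir17 and Mir20a gave 66.2% of the counts of the Mir17 group in replicate 1 and 65.1% in replicate 2, the rest coming from Mir106b and Mir93. Mir92-1 gave 64.0% and 66.8% of the Mir92 group, the rest coming from Mir25. The means were 65.7% ± 0.740 and 65.4% ± 2.01. Since Mir92-1 is undercounted and Mir25 has no identical arm elsewhere, the value for the Mir92 group is a lower limit, and the groups cannot be compared in this.

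Other genes of the tables with the same seeds were set beside the 9, as taken from the mature arms in RefSeq. The paralogous X-linked cluster, Mir106a-363, summed to 237 and 330 CPM over its 6 genes. In counted reads, Mir17-92 was 135 and 104 times as high in replicates 1 and 2. Its arms are close to those of Mir17-92, which are shown above.
miR-106a-5p: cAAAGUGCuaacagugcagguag
miR-20b-5p: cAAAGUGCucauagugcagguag
miR-18b-5p: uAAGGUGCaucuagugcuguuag
Against miR-17-5p, miR-106a-5p carries the single substitution U10A, yet Mir17 had 254 ± 59.8 times the counts of Mir106a. The part of near-identical arms in this ratio was not tested. Mir18 had 367 ± 110 times those of Mir18b, whose arm differs from miR-18a-5p by A18U and A20U, and Mir20a 119 ± 19.7 times those of Mir20b. For the pairs with an identical arm, the ratios of counted reads were 36.9 ± 1.74 for Mir92-1 to Mir92-2 and 3.10 ± 0.0739 for Mir19b-1 to Mir19b-2. In these pairs, reads of the shared arm are missing from both genes, so their ratios are bounded in neither direction.

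With the genes found for each seed pooled, the 9 members held nearly all counted reads of the Mir17 and Mir18 group pools. The pools hold the counts of whole genes, both arms included, and no reads were selected by seed. They may not hold every gene with a seed, so the shares are those of the genes pooled. Mir106a and Mir20b gave 0.348% ± 0.0683 of the counts of the Mir17 group pool. Mir6383, the only other gene of this pool, had no count, which allows up to 0.651 CPM in replicate 1 and 0.724 in replicate 2. Mir18b gave 0.285% ± 0.0856 of the counts of the Mir18 group pool and Mir19b-2 6.59% ± 0.0391 of those of the Mir19 group pool. In the Mir92 group pool, Mir92-1 gave 56.8% ± 1.61 of the counts and Mir25 30.0% ± 1.82. The X-linked Mir363 and Mir92-2 gave 3.89% ± 0.514, and Mir32, Mir92b and Mir367 gave 9.28% ± 0.307. Reads of miR-92a-3p with several alignments are missing here, so the shares of Mir25, Mir32 and Mir92b are upper limits. The shares of Mir92-1 and Mir92-2, and that of Mir19b-2 in its group, are not bounded. Mir32 was the highest of these at 220 and 222 CPM, and Mir25 was 4.31 ± 0.0196 times as high. Mir92b had 66.4 and 80.1 CPM, and Mir367, a microRNA of pluripotent cells, had no count in either library.

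**Figure D3:**
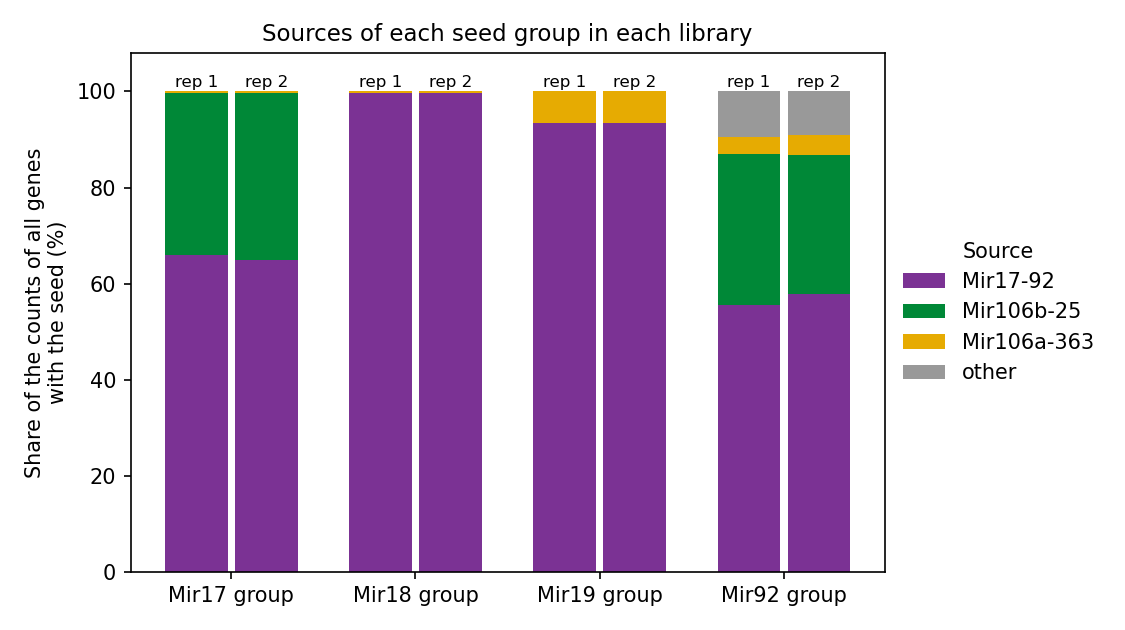
Share of the counted reads of each seed group pool (in percent of the genes pooled for that seed) by source, in each library. Mir17-92 and Mir106b-25 together fill almost the whole bar of the Mir17 group. The other genes pooled take 9.28% of the Mir92 group on average, an upper limit for these genes.

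The 2 libraries were then compared gene by gene, to see how closely the members of a transcript kept their proportions. All 9 members had a log2 ratio of replicate 2 to replicate 1 above 0, as did 57.0% of the 407 genes with at least 10 counts. The ratios ran from 0.02 for Mir25 to 0.32 for Mir19a, with a median of 0.15 against 0.04 over the 407 genes. By a two-sided exact binomial test with Benjamini-Hochberg adjustment over these genes, 7 of the 9 passed an adjusted p of 0.05, all higher in replicate 2, beside 35.6% of all genes tested (19.9% higher and 15.7% lower). The test takes counting noise as the only error, so it compares the 2 libraries and no conditions. It passes small ratios in deeply read genes, and 51.3% of the 275 genes with at least 100 counts passed it.

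These calls depended on the scaling. With TMM library sizes, which lowered the median ratio of all genes by 0.06, Mir20a (0.06), Mir92-1 (0.14), Mir106b (0.10) and Mir93 (0.09) still passed, 4 of 9. Mir17 (0.01) and Mir19a (0.26) no longer did, and Mir18 and Mir25 turned to -0.0072 and -0.045. DESeq2 size factors also left 4 of 9. Under both scalings the 4 were higher in replicate 2, beside 11.1% of the 407 genes called higher with TMM and 10.3% with DESeq2. Over all genes, 81 of 145 calls were higher in replicate 2 with the library total, 45 of 131 with TMM and 42 of 138 with DESeq2. When a coefficient of variation of 0.1 between samples was assumed in the exact test of edgeR, 0 members and 0 of all genes passed, while 7 members and 166 of the 407 genes had an unadjusted p under 0.05 in the binomial test.

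Shares within a cluster do not depend on scaling, and some of them differed between the libraries. Mir25 gave 6.75% of the Mir106b-25 counts in replicate 1 (95% exact binomial interval 6.56 to 6.95) and 6.16% in replicate 2 (5.98 to 6.35). Mir92-1 gave 5.23% of Mir17-92 (5.12 to 5.34) in replicate 1 and 5.63% (5.51 to 5.75) in replicate 2. Mir18 gave 15.0% and 14.6%, Mir17 57.4% and 56.9% and Mir20a 22.1% and 22.6%, all with intervals that did not overlap. The intervals of Mir93 and Mir106b overlapped, as did those of Mir19a and Mir19b-1. The largest of these shifts over the 9 genes was 0.592 percentage points, at Mir17.

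Other microRNAs moved between the libraries as well. The 4 surface epithelium markers summed to 60989.9 CPM in replicate 1 and 50754 in replicate 2, the 3 skeletal muscle markers to 6424 and 4681 CPM, and the 3 erythroid markers to 547 and 417 CPM. The 2 liver markers summed to 82.5 and 110 CPM, and the 3 leukocyte markers to 598 and 655 CPM. The leukocyte markers did not move together, with log2 ratios of 0.23 for Mir155, 0.06 for Mir223 and -0.11 for Mir150. Nor did the 3 limb patterning markers, at 0.14 for Mir196b, -0.19 for Mir10b and -0.34 for Mir10a. In the surface epithelium list the ratios ran from -0.36 for Mir203 to -0.014 for Mir429. Those of the erythroid list ran from -0.43 for Mir144 to -0.012 for Mir486. All these markers had counts in both libraries. Their part in the higher share of the clusters in replicate 2 was not tested, and the replicate, its collection day and its library cannot be told apart.

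**Figure D4:**
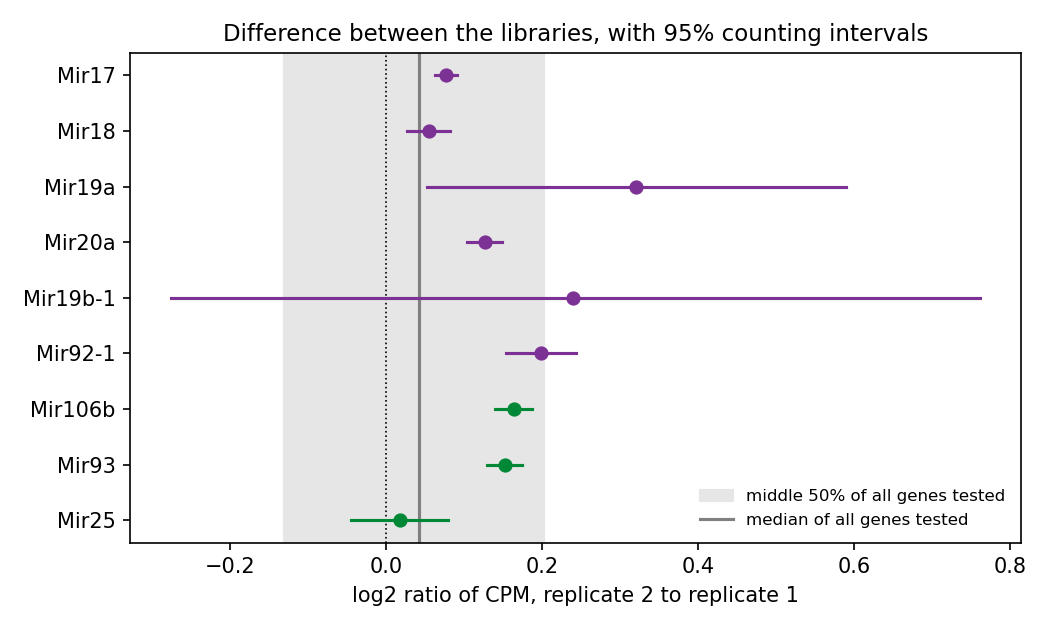
Log2 ratio of CPM, replicate 2 to replicate 1, of each member (points) with its 95% exact counting interval (lines), beside the middle 50% (grey band) and median (grey line) of the 407 genes tested. All 9 points lie above 0 with library totals, of which Mir18 and Mir25 fall below 0 with TMM or DESeq2 scaling.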

How the data were processed

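The data were small RNA reads of 2 libraries of 1 group. The deposited values are raw counts of reads per gene, aligned to mm10 and counted on GENCODE M4 per the authors' read-me texts. The aligner, the counter and their settings are not given in the sources used here. Of the 3 count columns, the own-strand column was used, identified from its values. Reads given to no gene (12.8% and 13.7% unmapped, 31.8% and 32.6% with several alignments, 4.19% and 4.31% on no gene's own strand) were left out of the library totals.

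Genes were named by identifier from GENCODE M21 of the same build (1894 of 1973 matched). All 9 members matched the RefSeq sequence table. Log2 ratios carried a prior count of 0.5. Intervals are exact Clopper-Pearson intervals at 95%, and they and the floor of 3 counts cover counting error only, since no molecular identifiers were recorded. No quasi-likelihood test was run, since a comparison of 1 library with 1 has no residual degrees of freedom. The binomial test was tested on simulated data. Named genes were the members, the X-linked paralogues, other genes of the 4 seeds and the level neighbours of Mir17 and Mir93. Members, lists and tests were chosen with earlier results of these data known. Alternatives were other scalings, filters, prior counts, either-strand counts and single libraries. Tools were R 4.3.3 with edgeR 4.0.16 and DESeq2 1.42.0, and Python 3.11.15 with scipy 1.17.1, pandas 2.3.3, matplotlib 3.10.9 and numpy 2.4.6.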

Additional observations from a re-analysis of the deposited data

How the results depend on the processing

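Of 33 recomputed summary values, 22 kept their direction and side of the threshold or moved by less than 1 SD. Some of these could not move. Either-strand counts leave the cluster ratio and all shares unchanged, since no member had an opposite-strand count. Leaving out members with an identical arm cannot change the chromosome 14 share of the Mir17 group. A further 22 left out a library, which with n = 2 gives the value of the other library and is no sign of stability. With reads of several alignments in the total, Mir17-92 summed to 20207 CPM and Mir106b-25 to 8993 CPM, by construction. Without the 2 members whose arm is identical elsewhere, the Mir17, Mir18, Mir19 and Mir92 groups held 87.1%, 10.7%, 0.116% and 2.07% of the remaining counts, and chromosome 14 held 0% of the Mir92 group, since Mir25 alone was left. Members called between the libraries fell from 7 to 4 with TMM, to 4 with DESeq2, to 0 with a 1.5-fold minimum and to 0 with edgeR's exact test. Calls over all genes fell from 145 to 7 with that minimum. Mir18 turned to a log2 ratio of -0.0072 with TMM and -0.017 with DESeq2, and Mir25 to -0.045 and -0.054. Mir19a, called at an adjusted p of 0.0499 by the binomial test, missed the threshold without a count filter (0.0831). The median ratio of the members stayed above 0 under both scalings, at 0.09 and 0.08. The comparison between libraries cannot leave one out. No paired analysis was possible because there is 1 group. Depth limits Mir19a and Mir19b-1, with at most 246 and 67 counts a library.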
